A study of Mus musculus with 2 samples.

Results

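The cells described here are those of dorsal mouse skin with a high level of inner root sheath keratins. They were chosen by a rule on 4 keratin genes, *Krt71*, *Krt25*, *Krt27* and *Krt28*: a barcode with 200 to 8000 genes and at most 10% mitochondrial UMIs (unique molecular identifiers, the count of captured transcripts) was a member where these genes together made at least 150 per 10000 of its UMIs and at least 3 of the 4 were detected. The rule found 983 members among 42244 kept cells of the Con library and 160 among 20045 kept cells of the TP library, 1143 of 62289 in all. Both groups were male C3H/HeN mice whose dorsal skin was taken at 9 weeks of age. Con mice received vehicle, and TP mice, a model of androgenetic alopecia started at 7 weeks, received testosterone propionate under the skin at 0.5 mg per day. Each group was a pool of 15 mice dissociated into 1 library, so animals cannot be told apart, no difference between Con and TP has a replicate check, and the intervals given are exact 95% intervals that cover counting error only. The TP + Ab mice were not used here. Since the rule used the 4 keratins, their levels are a description of the choice.

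The inner root sheath is the rigid tube of keratinocytes that surrounds the growing hair shaft, hardens before it and is removed higher in the follicle. Its cells pair type II keratins (*Krt71* to *Krt73*) with type I keratins (*Krt25* to *Krt28*), and trichohyalin, encoded by *Tchh*, fills their granules before peptidylarginine deiminases citrullinate it and transglutaminases crosslink it. *Gata3*, *Cux1* and *Dlx3* are transcription factors known from this lineage. *Krt72* and *Krt73* are known from the cuticle of the sheath, the layer that faces the hair shaft.

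The rule genes lie in 2 keratin clusters of the GRCm38.p6 assembly: *Krt71* on chromosome 15 from 101733949 to 101743097, beside *Krt72* and *Krt73*, and *Krt25*, *Krt27* and *Krt28* on chromosome 11 between 99315516 and 99374903. The 250 bases before the annotated start of these genes and of *Krt73*, the keratin by which members are divided further on, are shown 5′ to 3′ on the coding (minus) strand, so that the windows of genes counted together can be read side by side. Capitals mark TATAAA on the coding strand and GATAA on either strand (TTATC where it lies on the other).
Krt71, chr15:101743098-101743347: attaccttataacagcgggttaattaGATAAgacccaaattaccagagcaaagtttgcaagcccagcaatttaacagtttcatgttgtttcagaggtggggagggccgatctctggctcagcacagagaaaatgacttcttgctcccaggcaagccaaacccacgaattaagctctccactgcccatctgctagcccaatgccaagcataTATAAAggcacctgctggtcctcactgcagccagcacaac
Krt73, chr15:101802361-101802610: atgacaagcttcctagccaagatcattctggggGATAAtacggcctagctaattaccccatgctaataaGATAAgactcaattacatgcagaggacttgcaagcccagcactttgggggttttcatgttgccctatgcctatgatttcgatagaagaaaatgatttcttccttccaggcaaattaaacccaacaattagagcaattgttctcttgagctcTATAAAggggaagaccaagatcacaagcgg
Krt25, chr11:99322952-99323201: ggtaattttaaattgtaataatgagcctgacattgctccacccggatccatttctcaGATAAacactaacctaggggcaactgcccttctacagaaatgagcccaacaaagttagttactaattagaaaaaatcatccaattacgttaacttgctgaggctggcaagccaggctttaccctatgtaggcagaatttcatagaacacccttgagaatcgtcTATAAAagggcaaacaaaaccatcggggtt
Krt27, chr11:99351119-99351368: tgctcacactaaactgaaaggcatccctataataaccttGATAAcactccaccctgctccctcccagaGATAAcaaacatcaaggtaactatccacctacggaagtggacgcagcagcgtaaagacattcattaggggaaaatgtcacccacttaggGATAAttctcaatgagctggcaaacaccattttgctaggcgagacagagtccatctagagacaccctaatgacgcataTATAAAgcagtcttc
Krt28, chr11:99374904-99375153: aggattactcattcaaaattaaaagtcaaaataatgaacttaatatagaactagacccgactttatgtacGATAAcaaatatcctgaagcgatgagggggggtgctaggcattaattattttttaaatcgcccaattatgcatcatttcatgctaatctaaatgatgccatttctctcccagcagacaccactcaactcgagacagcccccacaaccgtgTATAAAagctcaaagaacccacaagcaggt
Both motifs were found in all 5 windows. The first, TATAAA on the coding strand, was present in 7.59% and the second, GATAA on either strand, in 22.6% of the 32851 RefSeq windows of this length. The longer AGATAA was present in 4 of the 5 windows, the *Krt28* window being the exception, and in 9.99% of all windows. *Krt71* and *Krt73* shared an unbroken run of 14 bases, ttgcaagcccagca. The window of *Tchh* held GATAA without TATAAA, and those of *Crnn* and *Prr9* held TATAAA without GATAA. Windows of related genes are not independent of each other, so the 5 keratin windows are not 5 separate matches. A match describes these letters only, and binding was not measured.

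Members were deeper than the average kept cell. The Con members held 4029494 UMIs with a median of 2924 per cell, against 2162 over all kept cells of that library, and the TP members held 2145973 with a median of 9310.5, against 5166. The keratin sum of members ran from 150.1 per 10000 UMIs over a median of 199 to 1005 in Con, and from 150.1 over 215 to 933 in TP. Just inside the limit, from 150 to under 160, lay 133 Con and 24 TP members, and just outside it, from 140 to under 150 with 3 of the genes detected, lay 161 and 28 cells. A further 46 Con and 24 TP barcodes met the keratin rule but not the limits on genes and mitochondrial UMIs. Of 303 barcodes found in both libraries, 7 were Con members and 1 was a TP member, and none was a member in both.

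UMIs of the rule keratins were also found in cells of other types, with more of them in Con. In cells chosen by collagen genes (fibroblast cells, 409 in Con and 838 in TP) the median keratin sum was 11.3 per 10000 in Con and 1.64 in TP, with a highest cell at 93.0 and 85.5. In cells chosen by immune genes (107 and 373) the medians were 10.8 and 2.08. None of these cells was a member, so the limit of 150 lay above every such cell in both libraries. Over all kept cells the median was 24.2 in Con and 2.79 in TP.

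**Figure D1:**
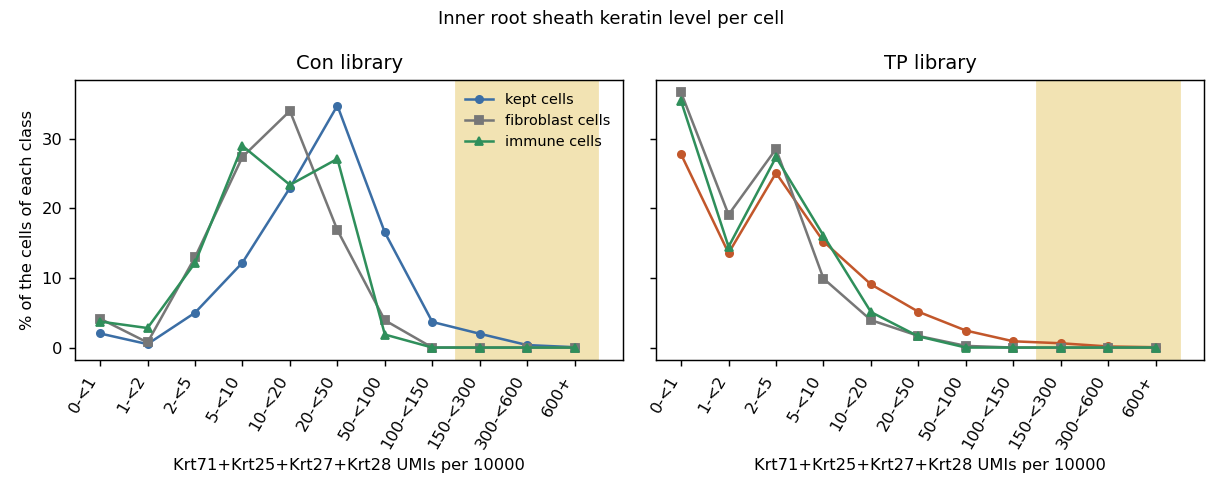
Percent of cells (y axis) in each range of the summed *Krt71*, *Krt25*, *Krt27* and *Krt28* UMIs per 10000 (x axis, unequal ranges), for all kept cells, fibroblast cells and immune cells of the Con and TP libraries; the shaded ranges from 150 hold the members. No fibroblast or immune cell reached 100 in either library, and 16 of 409 Con fibroblast cells lay between 50 and 100.

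Genes that the rule did not use were also higher in these cells. *Crnn*, *Sytl2* and *Tchh* came from lists chosen with earlier results of these data known, so their levels are a description. *Crnn*, which encodes the S100-fused protein cornulin, reached 103 UMIs per 1000000 (CPM) in Con members (95% interval 93.3 to 113) against 5.12 in all other kept cells of the library, and 171 (154 to 190) against 1.51 in TP. *Sytl2*, which encodes a synaptotagmin-like effector of Rab27, was at 623 CPM (599 to 648) against 52.0 in Con and at 380 (354 to 407) against 13.0 in TP. *Tchh* was 5.13 times as high in members as in other cells of Con and 28.6 times in TP. Of 9138 genes with at least 50 UMIs over the members of both libraries, 196 (2.14%) were at least 2-fold higher in members than in other kept cells of both libraries, the 4 rule keratins included, and 595 (6.51%) were at least 2-fold lower in both.

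Ranked by the smaller of the 2 ratios, the genes that set members apart held *Cpm*, which encodes carboxypeptidase M, at 8.72 times the other cells in Con and 9.47 times in TP, and *Aox4*, an aldehyde oxidase, at 9.07 and 13.7 times. *Pitpnc1*, a phosphatidylinositol transfer protein, was at 6.02 and 12.2 times, and the formin gene *Fmn1* at 5.68 and 8.20 times. *Slc39a8*, a zinc importer, was at 5.26 and 5.74 times, and *Ctsc*, the lysosomal protease cathepsin C, at 4.41 and 6.45 times. The transcription factor gene *Maf* was at 3.55 and 3.78 times, and the lysophosphatidic acid receptor gene *Lpar6*, known for its part in woolly hair, at 3.69 and 8.04 times. *Calhm5*, *Ttyh2*, *Nudt13*, *Plxna2*, *Nrg3*, *Cmtm8*, *Pcdh7*, *Csrp2*, *Cnksr3*, *Golga7b*, *Flrt3*, *Crlf3*, *Ttll7* and *March3* complete the 25 genes chosen this way, and each was at least 3.04 times as high in members as in other cells of both libraries. The ratio was larger in TP than in Con for 24 of the 25 genes, *March3* being the exception. The other kept cells that these ratios divide by differed between the libraries as well. Their median keratin sum was 23.5 per 10000 UMIs in Con and 2.75 in TP. The part of that difference in the ratios was not tested. No order between the libraries was therefore read from these ratios or from those of *Tchh* above.

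Members differed among themselves along the keratin sum. In Con 811 members lay from 150 to under 300 per 10000, 150 from 300 to under 600 and 22 at 600 or more, and in TP 119, 31 and 10. *Krt71* and *Krt25* set most of the sum and followed it, while the other 2 rule genes parted. *Krt27* was at 908 CPM in the lowest and 8210 in the top range of Con, a ratio of 9.04 (8.36 to 9.76), and at 1177 and 6887 in TP, a ratio of 5.85 (5.43 to 6.31). *Krt28* was at 1559 and 2062 in Con, a ratio of 1.32 (1.15 to 1.52), and at 1640 and 2004 in TP, a ratio of 1.22 (1.09 to 1.37). *Krt73*, outside the rule, was lower in the top range than in the lowest, at 0.557 (0.405 to 0.748) of it in Con and 0.456 (0.376 to 0.549) in TP.

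Of 2088 genes with at least 200 UMIs in the members of each library, 18 (0.862%) were at least 2-fold higher in the top than in the lowest range in both libraries, and 28 (1.34%) were at least 2-fold lower in both. *Crnn* had the largest weaker ratio, 6.31 (4.47 to 8.74) in Con and 6.55 (4.94 to 8.68) in TP. *Ly6d*, which encodes a surface protein of keratinocytes, was at 4.17 (3.61 to 4.79) and 3.75 (3.36 to 4.18), and *Tchh* at 3.10 (2.94 to 3.27) and 2.81 (2.69 to 2.94). *Sytl2* was at 2.62 and 2.73, *Anxa1*, which encodes the phospholipid-binding annexin A1, at 2.72 and 2.24, and the small heat shock protein gene *Hspb8* at 2.48 and 2.43. *Cited4*, *Gcat* and *Ero1l* were also among the 10 genes with the largest ratios, each at 2.16 or more in both libraries.

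The genes with the smallest ratios included proliferation genes. *Top2a* and *Cenpf*, which act in dividing cells, stood at 0.157 and 0.199 of the lowest range in the top range of Con and at 0.143 and 0.0393 in TP, on 5 UMIs or fewer each in the top range. *Prr9*, *Epcam*, *Magi1*, *Bach2*, *Sat1*, *Zswim6*, *Sox5* and *Dip2c* complete the 10 genes with the smallest ratios. Of the lineage regulators, *Lef1*, the nuclear partner of β-catenin, was at 286 CPM in the lowest and 115 in the top range of Con and at 322 and 115 in TP. *Gata3* was at 404 and 277 in Con, a ratio of 0.686 (0.457 to 0.989), and at 489 and 290 in TP, a ratio of 0.593 (0.440 to 0.786). The top range held 22 Con and 10 TP cells, and the intervals do not cover the spread between them.

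**Figure D2:**
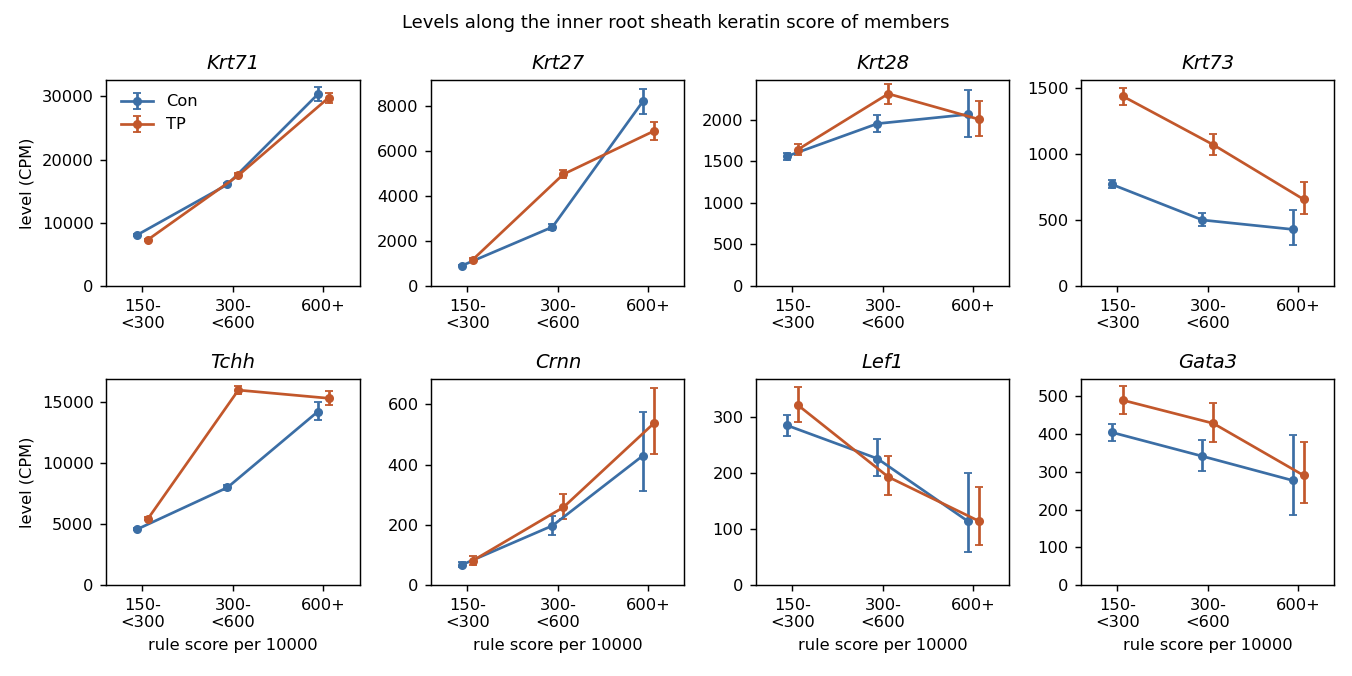
Level in UMIs per 1000000 (y axis, one scale per gene, from 0) of 8 genes in members of 3 ranges of the keratin sum per 10000 (x axis), for Con and TP; points are sums over the cells of a range and bars exact 95% Poisson intervals. *Krt71*, *Krt27*, *Tchh* and *Crnn* were higher in the range of 600 and more than in the range from 150 in both libraries, *Krt73* and *Lef1* were lower, and *Krt28* was at 1.32 times in Con and 1.22 times in TP.

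*Krt73*, which the rule did not use, varied widely between members. In Con members its level per cell ran from 0 over a median of 2.39 to 104 per 10000 UMIs, and in TP members from 0 over 8.97 to 79.6. Members with at least 15 *Krt73* UMIs per 10000 and at least 3 *Krt73* UMIs are called *Krt73*-high here, a limit chosen after the values had been seen. They were 120 of 983 Con members, or 12.2% (10.2 to 14.4, Clopper-Pearson), and 52 of 160 TP members, or 32.5% (25.3 to 40.3). The share was also higher in TP at equal depth: with members thinned to 2000 UMIs in 1 random draw, which left out 271 Con and 5 TP members with fewer, 17.4% (14.7 to 20.4) of 712 Con and 41.3% (33.5 to 49.5) of 155 TP members held at least 3 *Krt73* UMIs. With 1000 UMIs, which left out 50 and 1, the shares were 7.18% (5.61 to 9.03) and 18.9% (13.1 to 25.8).

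The genes that went with *Krt73* were chosen in Con alone and then read in TP. Of the 15 genes highest in *Krt73*-high over other members of Con, 11 were at least 2-fold higher in TP too, where 0.754% of the 3979 genes with at least 200 Con and 50 TP UMIs passed that fold. None was 2-fold lower, and *Runx1* had the smallest TP ratio, 0.986 (0.583 to 1.61). *Prr9* was at 1600 CPM in *Krt73*-high and 62.0 in other members of Con, a ratio of 25.8 (22.2 to 30.1), and at 2678 and 164 in TP, a ratio of 16.3 (14.3 to 18.7). *Crym*, which encodes a thyroid hormone-binding crystallin, was at 6.12 (4.67 to 8.03) and 4.49 (3.41 to 5.96), the adhesion receptor gene *Adgrl3* at 5.47 (4.58 to 6.53) and 4.30 (3.32 to 5.58), and the cadherin gene *Cdh6* at 5.08 (4.69 to 5.50) and 2.93 (2.55 to 3.38). *Krt23*, *Ggct*, *Nkd2*, *Ctps*, *Cdc14a* and the ligand gene *Wnt5a* also passed 2-fold in both libraries. *Tchh* was at 14770.2 CPM in *Krt73*-high and 4122 in other members of Con, and at 14168 and 7518 in TP. The 5 cells with the most *Tchh* held 50.1% of its UMIs in *Krt73*-high members of Con and 65.0% in TP. With the 5 highest cells of each class left out, *Tchh* was at 8098 and 3851 CPM in Con and at 6974 and 5639 in TP. For *Prr9*, the 5 highest cells held 63.3% of its UMIs in *Krt73*-high members of Con and 49.8% in TP. With the 5 highest cells of each class left out, *Prr9* was at 625 and 41.9 CPM in Con and at 1489 and 72.1 in TP. No order between the libraries was read from its ratios.

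Another set of genes was low in *Krt73*-high members of both libraries. Of the 15 genes lowest in *Krt73*-high members of Con, 14 had at least 50 UMIs in TP, all 14 were lower there and 12 by at least 2-fold, against 1.66% of the 3979 genes. *Creb5*, a transcription factor gene, was at 110 CPM in *Krt73*-high and 705 in other members of Con, a ratio of 0.156 (0.118 to 0.202), and at 150 and 614 in TP, a ratio of 0.244 (0.194 to 0.304). *Efna5*, which encodes an ephrin ligand, was at 0.196 (0.159 to 0.239) and 0.269 (0.221 to 0.325), and *Srgap2*, a regulator of the actin skeleton, at 0.225 (0.168 to 0.295) and 0.302 (0.232 to 0.386). *Sytl2* was at 146 and 695 CPM in Con and at 181 and 455 in TP, with 105 of its 106 UMIs in *Krt73*-high members of TP and 60 of 77 in Con held by 5 cells, and *Fmn1* at 205 and 803 in Con and at 271 and 614 in TP. *Steap2*, *Steap1*, *Camk2d*, *Klf12*, *Map2*, *Tcf7l2*, *Smoc2* and *Tspan18* were among the 15 too. *Krt71* was at 0.611 (0.590 to 0.632) of the other members in Con and 0.608 (0.589 to 0.627) in TP, while *Krt28* was at 1.39 (1.31 to 1.49) and 1.35 (1.27 to 1.45). *Krt72*, the other cuticle keratin, had 20 of its 28 Con UMIs and 37 of its 39 TP UMIs in *Krt73*-high members. Sheath regulators differed as well: *Gata3* was at 1.65 (1.45 to 1.87) and 1.60 (1.41 to 1.83), and *Trps1*, a GATA-type zinc finger gene, at 1.95 (1.67 to 2.26) and 2.41 (2.08 to 2.79).

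**Figure D3:**
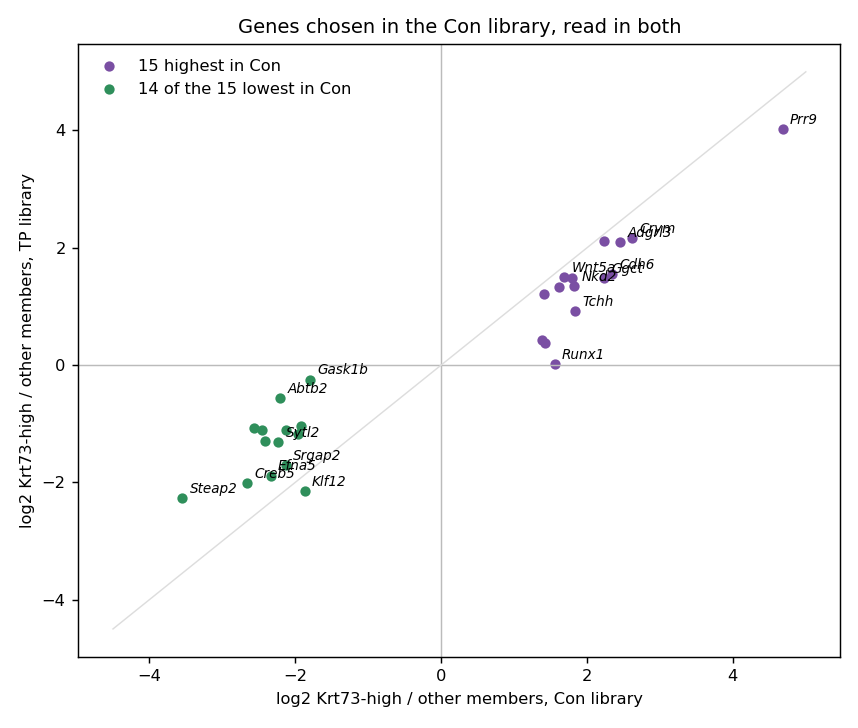
Log2 ratio of *Krt73*-high over other members in the Con library (x axis) and the TP library (y axis) for the 15 genes highest (purple) and 14 of the 15 lowest (green) in Con, chosen in Con; the grey line marks equal ratios. *Prr9* lies at 4.69 and 4.02, and *Runx1* and *Gask1b* lie near 0 in TP.

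Members were a smaller share of the TP cells. They made 2.33% (2.19 to 2.48) of kept cells in Con and 0.798% (0.680 to 0.931) in TP, which is 0.343 (0.288 to 0.406) of the Con share. The *Krt73*-high members stood apart from this, with 0.284% (0.236 to 0.340) of Con and 0.259% (0.194 to 0.340) of TP cells, a ratio of 0.913 (0.646 to 1.27), while the other members made 2.04% and 0.539%, a ratio of 0.264 (0.214 to 0.322). With limits of 10, 20 and 30 *Krt73* UMIs per 10000 the ratio of *Krt73*-high members was 0.988, 1.08 and 0.878. With members thinned to 1000 UMIs and *Krt73*-high set at 3 *Krt73* UMIs, it was 0.944 (0.592 to 1.47) over all kept cells, against 0.314 (0.259 to 0.378) for the remaining members, and with 2000 UMIs 1.09 (0.792 to 1.48), against 0.326 (0.259 to 0.407). Over only the kept cells of at least 2000 UMIs, 23326 in Con and 17042 in TP, these were 0.706 (0.514 to 0.963) and 0.212 (0.168 to 0.265). The choice of total thus moved both ratios by over 1.5 times at this depth, since Con lost more of its cells to the limit, and the ratio of the *Krt73*-high members was the higher of the pair with either total. Shares are relative to the other cells of a pool, and fewer cells of the sheath, more of other cells and unequal release from the tissue cannot be told apart in them. With fibroblast and immune cells left out of the total, the ratio of all members was 0.361 (0.303 to 0.427).

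**Figure D4:**
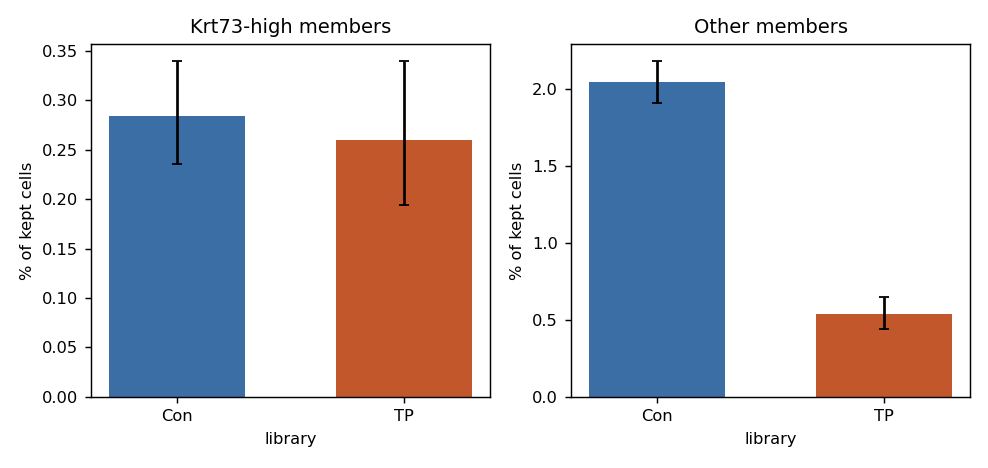
Share of kept cells (y axis, percent, from 0, one scale per panel) made by *Krt73*-high members (left) and other members (right) in the Con and TP libraries; bars are shares and lines exact 95% Clopper-Pearson intervals. The intervals of *Krt73*-high members overlap, at 0.236 to 0.340 and 0.194 to 0.340, and those of other members, at 1.91 to 2.18 and 0.442 to 0.650, do not.

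Cells with less of the keratins differed by more between the libraries. Cells with 50 to under 150 rule UMIs per 10000 made 19.9% of Con and 3.29% of TP cells, a ratio of 0.165 (0.152 to 0.179), and 16 of 409 fibroblast cells of Con and 2 of 838 of TP lay in the lower part of this range. Hair shaft keratin cells, chosen by hair keratins, made 0.175% and 0.200%, a ratio of 1.14 (0.755 to 1.70). In the cells with 50 to under 150, *Crnn* was at 14.5 CPM in Con and 16.8 in TP and *Sytl2* at 138 and 77.6, below the members in both libraries, while *Krt73* was at 944 and 1785 and *Lef1* at 530 and 438, above them. After 1 random draw of 1000 UMIs per cell, 11.7% of these cells in Con and 33.5% in TP held a *Prr9* UMI. Members were at 7.18% and 22.6%. A *Crym* UMI was held by 8.15% and 18.2% of these cells and by 3.11% and 6.29% of members. *Prr9* and *Crym* were thus not particular to members.

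Within the members, gene levels were compared between TP and Con. Of the 9138 genes counted, 182 (1.99%) were at least 2-fold higher and 282 (3.09%) at least 2-fold lower in TP members, on log2 ratios with 1 UMI added. The median log2 ratio was -0.14, and with TMM factors it was 0.0017, the counts then being 233 and 208; that scaling divides each TP over Con ratio of members by 0.909, so that values from 0.909 to 1 turn above 1 (*Lef1*, *Msx2* and *Tgm3* over all members, and *Tchh* and *Krt73* within the *Krt73*-high members). Differences are given without it.

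The levels of the rule keratins, by which the members of both libraries were chosen, are given as a description. Their ratios were above 1 in TP members. *Krt71* was at 10220 CPM (10122 to 10320) in Con and 12172 (12025 to 12321) in TP, a ratio of 1.19, and *Krt25* at 11567 and 14275, a ratio of 1.23. *Krt27* was at 1436 and 2757, a ratio of 1.92 (1.85 to 1.99), and *Krt28* at 1650 and 1864, a ratio of 1.13 (1.09 to 1.18). With the 3 ranges of the keratin sum weighted as in Con, *Krt71* was at 0.970 and *Krt27* at 1.44. In all other kept cells the ratio of *Krt71* was 0.196.

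*Tchh* was at 5516 CPM (5444 to 5589) in Con members and 9336 (9207 to 9466) in TP members, a ratio of 1.69 (1.66 to 1.73), and *Crnn* had a ratio of 1.67 (1.44 to 1.92). Without its 5 highest cells in each library, *Crnn* was at 1.46 (1.24 to 1.71). At 1000 UMIs per cell, 8.25% (6.57 to 10.2) of Con and 10.7% (6.35 to 16.6) of TP members held a *Crnn* UMI, and these intervals overlap. Both genes rose with the keratin sum, and the range of 600 and more made 2.24% of Con and 6.25% of TP members. The part of that mix in the 2 ratios is not given here. Among members that were not *Krt73*-high the *Tchh* ratio was 1.82 (1.78 to 1.87), and among *Krt73*-high members it was 0.959 (0.930 to 0.990). Without the 5 cells with the most *Tchh* in each group, these were 1.59 (1.55 to 1.62) over all members, 1.46 (1.42 to 1.51) and 0.861 (0.821 to 0.904). *Krt73* was at 709 and 1267 CPM over all members, a ratio of 1.79 (1.70 to 1.89), and at 0.949 (0.887 to 1.02) within the *Krt73*-high cells. Since *Krt73* itself chose that class in both libraries, its ratio there is a description of the choice. *Padi3*, a deiminase gene, had a ratio of 1.36 (1.13 to 1.64), *Padi1* one of 1.03 (0.720 to 1.45), and the transglutaminase genes *Tgm1* and *Tgm3* ones of 1.59 (1.20 to 2.11) and 0.920 (0.713 to 1.18). Of 11 granule and crosslinking genes counted, 3 were at least 2-fold higher and none at least 2-fold lower in TP members, against 1.99% and 3.09% of all genes counted, with a median log2 ratio of 0.67. In other kept cells 4 were higher and 4 lower, against 3.12% and 5.85%. Those 3, *Flg*, *Flg2* and *Hrnr*, are epidermal filaggrin-type genes with at most 64 UMIs in TP members, and all 3 were at least 2-fold lower in members than in other kept cells of both libraries. With so few UMIs, their being counted can rest on TP members alone.

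*Sytl2* was lower in TP members, with 623 CPM in Con members and 380 in TP members, a ratio of 0.610 (0.563 to 0.660). After 1 random draw of 1000 UMIs per cell, 34.4% (31.4 to 37.6) of 933 Con and 28.3% (21.5 to 36.0) of 159 TP members held a *Sytl2* UMI, against 1.58% and 0.370% of fibroblast cells, so these intervals overlap. In the other members *Sytl2* was at 0.654 (0.601 to 0.712), while at 1000 UMIs 37.5% (34.1 to 40.9) of 814 Con and 43.9% (34.3 to 53.9) of 107 TP cells held a UMI of it, in a separate draw. The share and the level thus differed in opposite directions there, and no order was read from the share. With the mitochondrial limit at 5% it was at 0.949. *Prr9* had the highest ratio among the genes at least 2-fold higher in members than in other cells, with 263 CPM in Con and 851 in TP members, a ratio of 3.23. Cells with much of it were few: the 90th percentile of members was 2.80 per 10000 in Con and 23.8 in TP, and the highest cell 313 and 263. Its ratio was 1.67 (1.54 to 1.82) within *Krt73*-high members and 2.38 (2.09 to 2.73) there without the 5 cells with the most *Prr9* of each library, while over all members it was 3.79 (3.41 to 4.22) without those 5 cells, 1.90 with the mitochondrial limit at 5%, and 1.18 over members with a keratin sum of 300 or more.

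Of the 196 genes at least 2-fold higher in members than in other cells of both libraries, among them the 4 rule keratins, of which none passed 2-fold between TP and Con, 7 were at least 2-fold higher and 17 at least 2-fold lower in TP members, 3.57% and 8.67%, against 1.99% and 3.09% of all genes counted. Beside *Prr9*, the higher genes were *Fhl2*, *Tent5b*, *Tubb3*, *Tdh*, *Klk10*, a kallikrein protease gene, and *Epgn*, an EGF receptor ligand gene at 22.8 and 57.8 CPM, a ratio of 2.53 (1.92 to 3.35). Among the lower ones were *Fgf5*, which encodes the growth factor known to end hair growth, at 43.2 and 16.8 CPM, a ratio of 0.388 (0.263 to 0.559), the WNT receptor gene *Fzd5* at 66.3 and 29.4, a ratio of 0.443 (0.331 to 0.585), and *Ism1*, a secreted factor gene, at 132 and 63.8, a ratio of 0.483 (0.397 to 0.583). In all other kept cells 4 of the 7 higher and 16 of the 17 lower genes passed the same fold in the same direction. There *Fgf5* was at 13.99 CPM in Con and 1.96 in TP, *Fzd5* at 20.5 and 7.31, and *Ism1*, the exception among the lower genes, at 27.2 and 26.1.

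Of 28 inner root sheath and follicle transcription factor genes counted, none was 2-fold higher or lower, where 1.99% and 3.09% of all genes counted were, and their median log2 ratio was 0.06, against -0.14 over all genes. In other kept cells 2 of them were higher and 6 lower, against 3.12% and 5.85%. *Gata3* was at 388 CPM (369 to 408) in Con and 454 (426 to 484) in TP members, a ratio of 1.17 (1.08 to 1.27), and *Dlx3* at 324 and 347, a ratio of 1.07 (0.977 to 1.17). The *Krt73*-high members, in which *Gata3* was higher in both libraries, made 12.2% of Con and 32.5% of TP members. The part of that mix in the *Gata3* ratio was not tested. *Cux1* was at 2621 and 2164, a ratio of 0.826 (0.797 to 0.855), *Foxn1*, the nude locus gene, at 0.798 (0.664 to 0.956), *Msx2* at 0.958 (0.782 to 1.17) and *Lef1* at 0.992 (0.895 to 1.10). *Ovol1*, *Klf4* and *Sox21* were at 1.76 (1.54 to 2.00), 1.78 (1.64 to 1.93) and 1.95 (1.48 to 2.56), and *Runx1* at 0.641 (0.495 to 0.823). In all other kept cells *Cux1* was at 0.339, *Dlx3* at 0.453 and *Foxn1* at 0.445.

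Of 32 signalling genes counted, 1 was at least 2-fold higher and 3 at least 2-fold lower, against 1.99% and 3.09% of all genes counted, with a median log2 ratio of -0.16. In other kept cells 2 were higher and 6 lower, against 3.12% and 5.85% of all genes counted. *Id1*, a target of BMP signalling, was the higher one, at 59.3 and 145 CPM, a ratio of 2.45 (2.06 to 2.91), and its relative *Id3* was at 254 and 486, a ratio of 1.91 (1.75 to 2.08). *Gli1*, the transcription factor and target of hedgehog signalling, *Jag2*, a Notch ligand gene, and *Igfbp5* were the lower ones: *Gli1* had 95 and 16 UMIs, a ratio of 0.316 (0.174 to 0.540), *Jag2* 53 and 8, and *Igfbp5* 98 and 14. *Notch1* was at 0.869 (0.788 to 0.957), its target *Hes1* at 1.30 and the hedgehog receptor gene *Ptch1* at 0.887 (0.753 to 1.04).

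Among 28 adhesion and junction genes, 3 were at least 2-fold higher and 1 at least 2-fold lower, against the same 1.99% and 3.09%, with a median log2 ratio of 0.11. In other kept cells, where 3.12% and 5.85% of all genes counted passed, 5 were higher and 5 lower. The connexin genes parted: *Gja1* was at 833 CPM (805 to 862) in Con and 595 (562 to 628) in TP members, a ratio of 0.714 (0.669 to 0.761), and *Gjb2* at 390 (371 to 409) and 522 (492 to 553), a ratio of 1.34 (1.24 to 1.45). *Gjb5* was among the 3 higher genes, with 41 and 80 UMIs, a ratio of 3.66 (2.48 to 5.48). The desmosomal *Dsp* was at 1.15 (1.11 to 1.19) and *Dsc1* at 1.28, and *Dsg3*, of the basal layers, was the lower gene with 52 and 7 UMIs. Of 20 lipid and barrier genes, *Elovl4*, *Elovl7* and *Sptlc3* were at least 2-fold higher and none was 2-fold lower on the log2 scale with 1 UMI added, with a median log2 ratio of 0.24, and in other kept cells 7 were higher and 1 lower. *Lpar6* was at 0.853 (0.733 to 0.990), and *Liph*, which encodes the lipase that makes its ligand, had 73 and 19 UMIs, a ratio of 0.489 (0.278 to 0.818), or -0.98 on that log2 scale, just short of the 2-fold limit. Of 10 vesicle genes, *Sytl2* among them, none was 2-fold higher or lower, and the median log2 ratio was -0.18. In other kept cells 1 was higher and 2 lower. With so few genes, no difference between members and other kept cells was read from these counts.

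Of 18 cell cycle genes counted, none was 2-fold higher and 3 were at least 2-fold lower, as in other kept cells, against 1.99% and 3.09% of all genes counted in members, with a median log2 ratio of -0.71 against -0.14 over all genes. *Mki67* was at 298 CPM (281 to 315) and 165 (148 to 183), a ratio of 0.553 (0.490 to 0.624), and *Top2a* at 0.580 (0.505 to 0.664), while *Ccnd1* was at 1.33 (1.16 to 1.51). In all other kept cells *Mki67* was at 0.429 and *Top2a* at 0.483. At 1000 UMIs per cell, 22.8% (20.2 to 25.7) of Con and 10.7% (6.35 to 16.6) of TP members held a *Mki67* UMI. Fibroblast cells were at 15.8% and 6.29% and immune cells at 22.6% and 8.84%. The shares of members were thus near those of immune cells in both libraries. Of 11 steroid response genes, 1, *Klf9*, was at least 2-fold higher and 1 at least 2-fold lower, and in other kept cells 2 were higher and none lower.

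Immediate-early genes, which cells switch on within minutes of a stimulus, made 8 of the 12 highest ratios between TP and Con members among genes with at least 200 UMIs. Of 16 counted, 12 were at least 2-fold higher in TP members and none lower, against 1.99% and 3.09% of all genes counted, with a median log2 ratio of 1.85. In all other kept cells 13 of the 16 were higher and none lower, against 3.12% and 5.85% of the same 9138 genes. *Atf3* was at 80.9 CPM (72.4 to 90.2) and 683 (648 to 719), a ratio of 8.44 (7.48 to 9.54), *Fos* at 247 and 1439, a ratio of 5.83 (5.42 to 6.26), *Fosb* at 6.69 and *Egr1* at 5.50. In all other kept cells *Atf3* was at 3.91, *Fos* at 2.98 and the median log2 ratio of the 16 genes was 1.54. At 1000 UMIs per cell, 16.2% (13.9 to 18.7) of Con and 66.0% (58.1 to 73.4) of TP members held a *Fos* UMI, as did 29.7% and 71.3% of fibroblast cells and 43.4% and 75.4% of immune cells. *Nr4a1*, *Btg2*, *Zfp36* and *Ifrd1* were also among the 12, with ratios from 4.14 to 5.51. Of 13 heat shock genes, 2 were at least 2-fold higher and none lower, as in other kept cells, with a median log2 ratio of 0.01.

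Genes of the upper epidermis were the other 4 of these 12. *Krt1*, *Krt77*, *Calm4* and *Ly6g6c* had ratios from 4.10 to 5.05, and 4 of 6 suprabasal genes passed 2-fold towards TP, with a median log2 ratio of 1.53, as did 5 of the 6 in other kept cells. *Krt10* was at 683 CPM in Con and 2658 in TP members and at 3111 and 10727 in all other kept cells. The summed list was at 22.4% of its level in other kept cells in Con members and at 25.4% in TP members, and 5 of its 6 genes were at least 2-fold lower in members than in other cells of both libraries. Of 14 cornified envelope genes, 9 were at least 2-fold higher in members and 11 in other kept cells, where 1.99% and 3.12% of all genes counted were, with a median of 1.42 in members and 1.80 in other cells. RNA of other cells in the members' droplets was not measured directly. The summed markers of other cell types, the suprabasal list included, were at 20.6% of their level in other kept cells in Con members and 20.8% in TP members. With these shares of the other cells' levels subtracted, which takes all such UMIs as RNA of other cells, 195 genes were at least 2-fold higher and 454 lower in TP members, and *Krt1*, *Krt77*, *Calm4* and *Ly6g6c* had ratios from 5.13 to 12.3. The suprabasal list was part of the summed markers and itself near the shares subtracted, so these ratios can rest on small remainders. In TP members the fibroblast list was at 3.59%, well below the share subtracted. Nothing was read from the subtracted ratios.

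The 12 genes with the lowest ratios, again with at least 200 UMIs, held markers of other cell types. *Dct*, of melanocytes, was at 65.5 CPM (57.9 to 73.9) and 6.52 (3.57 to 10.9), a ratio of 0.0996 (0.0537 to 0.170), *Corin*, of the dermal papilla, at 46.2 and 7.92, a ratio of 0.172 (0.0979 to 0.282), and *Krt35*, of the hair shaft, at 131 and 39.1, a ratio of 0.299 (0.235 to 0.377). *Sostdc1*, *Dcc*, *Ebf1*, *Ptn*, *Tspan18*, *Wif1*, *Smoc2*, *Gpc6* and *Vcan* had ratios from 0.170 to 0.347. Every gene of these 12 was lower in members than in other kept cells of both libraries. The dermal papilla list was at 12.4% of its level in other cells in Con members and 7.24% in TP members, the melanocyte list at 33.5% and 17.3%, the hair shaft list at 37.6% and 29.7%, the fibroblast list at 16.7% and 3.59%, and the immune list at 14.8% and 8.24%. The last 2 lists had higher summed levels in TP members than in Con members: the summed fibroblast list was at 126 CPM in Con and 152 in TP members and at 753 and 4230 in other cells, with 3 of its 4 counted genes at least 2-fold higher and 1 lower in TP members, against 1.99% and 3.09% of all genes counted, and the summed immune list was at 11.4 and 22.4 in members and at 77.3 and 271 in other cells. Of these lists, 2 hair shaft genes were at 0 UMIs in Con members, and 4 hair shaft, 1 fibroblast and 1 dermal papilla gene in TP members. The median log2 ratio of the fibroblast list, 1.13, turned to -1.14 with a keratin limit of 300 and to -1.22 with members thinned to 1000 UMIs, so no direction was read for it. A doublet search was run on each library, and 62 Con and 6 TP members were among the barcodes called; without them *Ebf1* was at 0.458 and *Vcan* at 0.526, from 0.239 and 0.347, and *Krt1* at 3.17. Without them 179 genes were at least 2-fold higher and 222 lower in TP members.

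**Figure D5:**
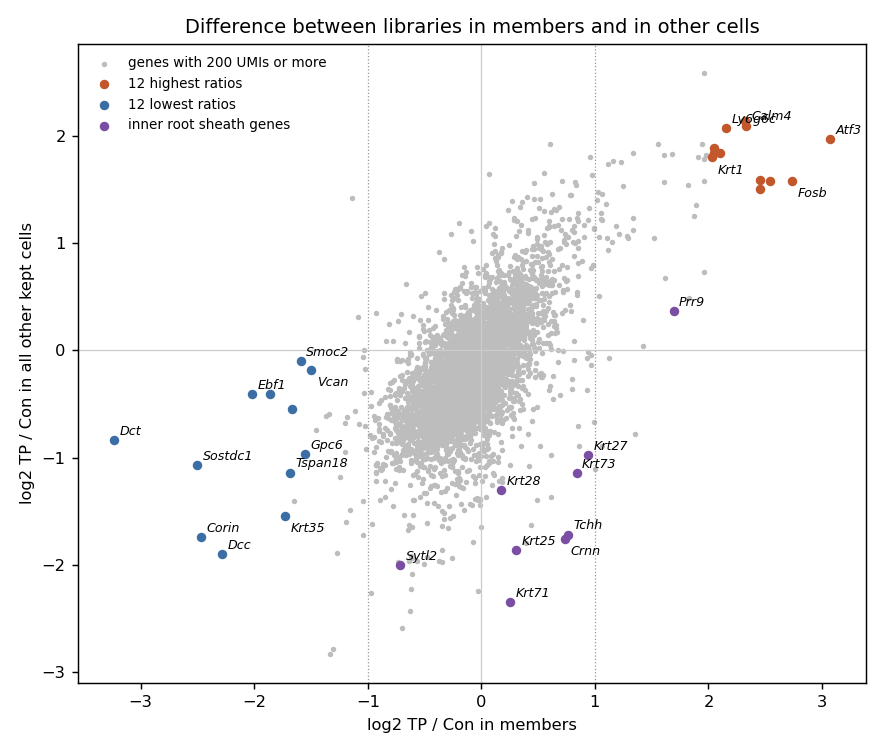
Log2 ratio of TP over Con in members (x axis) and in all other kept cells (y axis) for genes with at least 200 UMIs over the members of both libraries; dotted lines mark 2-fold in members. The 12 genes with the highest ratios in members (orange) are higher and the 12 with the lowest (blue) lower in TP in both cell sets, which come from the same 2 libraries. Of the inner root sheath genes (purple), the rule keratins, *Tchh*, *Crnn* and *Krt73* lie above 0 in members and below 0 in other cells. *Sytl2* lies below 0 in both, and *Prr9* above 0 in both. The rule keratins chose the members, so their place is a description of the choice.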

How the data were processed

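Dorsal skin of 15 pooled mice per group was dissociated with collagenase D, cleared of debris on Percoll and loaded for 10x 3′ single-cell sequencing, 1 library per group. The authors counted UMIs with Cell Ranger 8.0.1 against mm10 (GRCm38), per the submitters' notes, and deposited raw counts per gene and barcode for 45709 Con and 25931 TP barcodes, holding 130999979 and 166929585 UMIs. Gene positions and upstream windows are from RefSeq, GRCm38.p6.

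Barcodes with 200 to 8000 genes and at most 10% mitochondrial UMIs were kept, and no further cell calling was applied. Members were chosen by the keratin rule, and their counts were summed per library. A gene was counted with at least 50 UMIs over the members of both libraries. Genes with few UMIs could reach this limit through the library where they were high, so list counts depend in part on it. With at least 200 UMIs, 58 of 5284 genes were higher and 37 lower. A ratio is TP over Con of CPM, UMIs per 1000000 of the members' total. Log2 ratios had 1 UMI added to each side, and a call means at least 2-fold, since with 1 library per group no test was possible. Levels have exact Poisson, shares Clopper-Pearson and ratios exact conditional 95% intervals, which cover counting error only. Cells were thinned without replacement by 1 random draw. For doublets, the DoubletFinder steps were rewritten in Python, with 7.5% called per library, 25% artificial cells and 30 components.

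Some counted genes are not reported by name here. Named genes were those of lists of sheath, signalling, cell cycle, stress and other cell type genes, the 12 highest and 12 lowest ratios with at least 200 UMIs, the 25 genes highest in members over other kept cells, and the 10 highest and 10 lowest along the keratin sum. The members and lists were chosen with earlier results of these data known. The *Krt73* limit, the 15 genes on each side of it and the genes called among those higher in members were chosen after their values had been seen. The counting was checked on simulated Poisson counts without spread between cells or animals, so the check covers the calculation and not the calls. Python 3.11.15, numpy 2.4.6, scipy 1.17.1, pandas 2.3.3 and matplotlib 3.10.9 were used, with TMM factors from edgeR 4.0.16 in R 4.3.3. Alternatives covered the keratin and mitochondrial limits, depth, doublets, scaling, cell weights, the pseudocount and the count filter.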

Additional observations from a re-analysis of the deposited data

How the results depend on the processing

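No paired analysis was possible because each group was 1 library, and no replicate could be left out. The share of members in TP over Con (0.343) was 0.502 with a keratin limit of 300 per 10000, and 0.913 and 0.264 for *Krt73*-high and other members apart. The 182 higher and 282 lower genes became 101 and 141 with a limit of 300, 80 and 131 with members thinned to 1000 UMIs, 101 and 45 with a pseudocount of 0.1 per 10000, 58 and 37 with at least 200 UMIs, 1444 and 1642 with no filter, and 7 and 17 among genes higher in members. The lower genes were 458 with a limit of 100, 435 with equal weight per cell and 454 with levels of other kept cells subtracted. The median log2 ratio (-0.14) was -0.10 with a limit of 300, -0.12 without doublets, -0.11 with a mitochondrial limit of 5%, 0.0017 with TMM, 0.0085 with the median of ratios, -0.13 without the rule keratins in the total, -0.11 with the keratin ranges weighted as in Con and -0.0321 after thinning. *Krt71* turned from 1.19 to 0.970 with the ranges weighted and 0.984 after thinning, and the fibroblast list from a median of 1.13 to -1.14 with a limit of 300 and -1.22 after thinning; the causes were not tested. Subtraction, the *Krt73* classes, limits and thinning, the left-out top cells and genes higher in members were chosen after seeing the data. Of all other values, 744 stayed within their counting interval or 1.5 times and 232 moved without changing direction. The 160 TP members, and 10 in the top keratin range, limit the precision.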

Other observations

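Other gene groups are given as values. Of 17 protease and inhibitor genes counted, 7 were at least 2-fold higher and none at least 2-fold lower in TP members, with a median log2 ratio of 0.42. Of 14 energy genes none passed 2-fold, with a median of 0.24, and of 9 nuclear and organelle removal genes 1 was higher, with a median of 0.13. Of 4 cell cycle inhibitor genes none passed, with a median of 0.24, and of 4 metallothionein genes none passed, with a median of -0.32. Of 5 inflammation genes 2 were higher, with a median of 0.82, of 5 companion layer and medulla genes 2 were higher, with a median of 0.62, and of 7 basal and outer root sheath genes 1 was lower, with a median of -0.33. Over all 9138 genes counted, 1.99% were higher and 3.09% lower, with a median of -0.14. In other kept cells, where 3.12% and 5.85% passed, 7 protease and inhibitor genes were higher and 1 lower. There 4 inflammation, 4 companion layer and medulla, 1 removal and 1 basal gene were higher, and 1 metallothionein gene lower. Of the same genes, 7 protease and inhibitor, 3 inflammation, 4 companion layer and 7 basal ones were at least 2-fold lower in members than in other kept cells of both libraries.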
